A study of Mus musculus with 6 samples.

Results

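The genes described here are those of protein folding in the endoplasmic reticulum (ER): the stress sensors of its membrane, its chaperones and folding enzymes, the proteins of ER-associated degradation (ERAD) and the channel through which new proteins enter. They were chosen as a list of 38 gene symbols by known function, with earlier results of these data known. Of the 38, 36 had a row among the 17217 rows of the expression table. Derl3, an ERAD protein, and Ero1b, an ER oxidase, had no row under those symbols and count as not detected. The libraries fall into 3 Knockout libraries (Cd74-/-) and 3 Control libraries (Cd74+/+) of mouse bone marrow-derived macrophages, the cells that grow from marrow under the growth factor M-CSF. The labels describe marrow from the femurs of 8-week-old mice grown with 30 ng/mL M-CSF, and all 6 libraries come from cells given 100 ng/mL lipopolysaccharide (LPS), a bacterial cell wall product, for 24 h. There was no library without LPS. The one protocol text attached to all 6 libraries speaks of WT mice when it describes the marrow, so the titles and the genotype label were taken for genotype. The 3 Knockout libraries were labelled batch 2 and the 3 Control libraries batch 1, so genotype and batch cannot be told apart in any comparison below. The labels do not say whether the replicates came from separate mice, and p-values measure only the spread between these libraries, which may be technical.

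The ER folds the proteins that a cell secretes or puts on its surface. When unfolded proteins build up there, the sensors IRE1 (Ern1), ATF6 and PERK (Eif2ak3) start the unfolded protein response: IRE1 splices the Xbp1 mRNA into the form that makes an active transcription factor, ATF6 is cut into a free transcription factor, and PERK slows translation. XBP1 and ATF6 then switch on chaperone and ERAD genes. LPS-treated macrophages, which secrete cytokines, are known to use the IRE1 and XBP1 branch. CD74 is itself made in the ER, where it binds MHC class II molecules, and it is also a receptor for the cytokine MIF.

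Promoters carrying the letters to which ATF6 and XBP1 are known to bind are shown for the members that hold them, because the same genes are compared below. The ER stress element (ERSE) was searched as CCAAT, 9 bases of any kind and CCACG, and the related ERSE-II as ATTGG, 1 base of any kind and CCACG. The other motifs searched were TGACGTGG (UPRE), TGACGTGA (ATF6-type) and TGATGNAAT (CARE, bound by ATF4). The UPRE and ATF6-type letters differ in the last base alone, and ERSE and ERSE-II share CCACG. Both strands of the 250 bases before the start were searched, in RefSeq sequence of the build GRCm38.p6. The promoter table had an entry for 31 of the 38 members, and the other 7 were Hyou1, Atf6, Sec61a1, Derl1, Ssr2, Manf and Ostc. The ERSE was found in 10 of the 31 members (32.3%), against 37 of 32851 windows of the same length over all genes (0.113%). Here and below, shares of members are of genes and the others are of windows, among which the 33 windows of the members are counted. The members were chosen by known function and include genes that ATF6 and XBP1 switch on, so the higher share is a description of the list. ERSE-II was found in 1 member, Herpud1 (3.23%, against 0.0304% of windows), and the ATF6-type letters in 1 member, Hspa5 (3.23%, against 0.35%). UPRE and CARE were found in 0 of 31 members, against 0.563% and 0.816% of windows. The whole windows of Hspa5 and Herpud1, whose fold changes are among the largest below, are printed 5′ to 3′ on the gene's strand, with capitals marking the motif parts and, in Hspa5, also the ATF6-type letters. The Hspa5 window is chr2:34771840-34772089 on the + strand, with the ATF6-type letters 157 to 150 bases and the ERSE 65 to 47 bases before the start. The Herpud1 window is chr8:94386179-94386428 on the + strand, with the ERSE-II 52 to 42 bases before the start.
Hspa5: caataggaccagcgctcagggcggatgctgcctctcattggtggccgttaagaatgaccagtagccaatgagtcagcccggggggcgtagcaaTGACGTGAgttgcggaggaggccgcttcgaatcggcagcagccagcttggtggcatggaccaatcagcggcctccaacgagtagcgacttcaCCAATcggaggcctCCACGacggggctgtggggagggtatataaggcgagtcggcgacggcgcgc
Herpud1: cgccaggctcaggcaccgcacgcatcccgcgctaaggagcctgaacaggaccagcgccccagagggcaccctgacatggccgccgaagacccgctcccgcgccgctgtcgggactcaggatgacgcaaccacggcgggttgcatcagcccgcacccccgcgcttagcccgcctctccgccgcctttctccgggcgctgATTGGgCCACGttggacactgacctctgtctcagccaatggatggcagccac

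The other members with an ERSE are shown as the element alone with 12 flanking bases on each side, read on the strand on which the motif matched, with its parts in capitals. Hsp90b1 held it at 2 places, one on each strand, and Ero1b and Derl3, which had no row under those symbols, also held it. In Calr, Derl3, Ero1b, Creld2 and the nearer site of Hsp90b1 the match lay on the strand opposite to the gene.
Hsp90b1 (chr10:86705626-86705668): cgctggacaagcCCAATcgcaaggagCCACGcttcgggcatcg
Hsp90b1 (chr10:86705521-86705563): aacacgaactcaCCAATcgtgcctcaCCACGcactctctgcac
Creld2 (chr15:88819508-88819550): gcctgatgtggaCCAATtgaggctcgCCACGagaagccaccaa
Calr (chr8:84847063-84847105): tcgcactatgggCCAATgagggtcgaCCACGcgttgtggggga
Canx (chr11:50325788-50325830): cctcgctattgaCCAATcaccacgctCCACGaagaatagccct
Pdia6 (chr12:17266479-17266521): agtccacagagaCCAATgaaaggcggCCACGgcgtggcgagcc
Dnajc3 (chr14:118937815-118937857): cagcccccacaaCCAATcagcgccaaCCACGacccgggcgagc
Syvn1 (chr19:6046520-6046562): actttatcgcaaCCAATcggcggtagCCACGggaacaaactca
Derl3 (chr10:75893230-75893272): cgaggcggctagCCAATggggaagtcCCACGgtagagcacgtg
Ero1b (chr13:12565670-12565712): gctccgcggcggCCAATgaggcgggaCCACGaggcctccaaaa

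**Figure D1:**
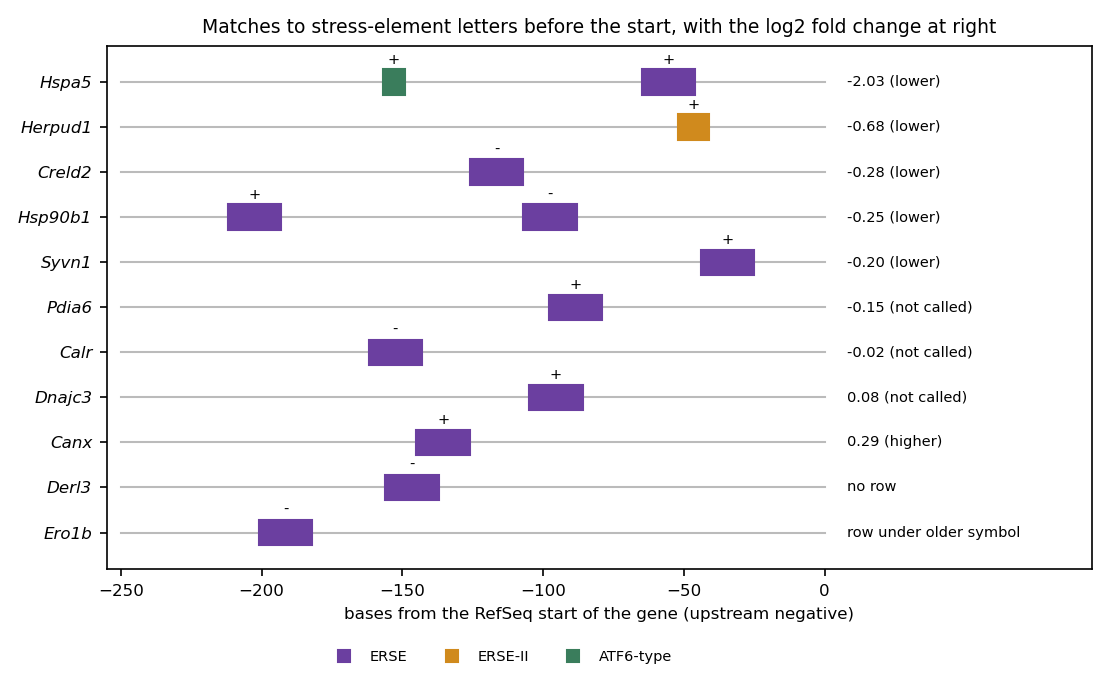
Positions of matches to the ERSE, ERSE-II and ATF6-type letters in the 250 bases before the RefSeq start of each member that holds one, by bases from the start, with the strand of the match above each box and the log2 fold change at right. Of the 9 members shown with a row under their own symbol, 5 were lower in Knockout, 3 were not called and 1, Canx, was higher.

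Depth ran from 36445462 to 59236599 recovered reads a library. Between 12854 and 13102 rows were at or above 1 TPM, the length-scaled abundance in which all values are given. The targeted gene Cd74 stood at 65.3, 64.6 and 63.1 TPM in Knockout libraries and at 632, 593 and 594 TPM in Control libraries, which goes with the labels. Its log2 fold change was -3.22 (SE 0.05, adjusted p = 1.78e-07, limma). However, 0 of its Knockout values came out as whole reads, against all 3 of its Control values. The size of this difference is therefore uncertain, and it is no firm check of the labels. Of the macrophage markers 8 were tested, of which 4 rose, 1 fell and 3 were not called. C1qa, C1qb, C1qc, Mertk and Maf had no row, 9 of the 14 markers had one, and their summed level was 14200 to 15500 TPM in Knockout libraries and 10800 to 11400 TPM in Control libraries. Among them Lyz2, lysozyme, rose, at 8102, 8324 and 9547 TPM in Knockout libraries and 4966, 5622 and 5529.7 TPM in Control libraries. Csf1r, the receptor for M-CSF, rose by 0.76, Itgam by 0.30 and Spi1 by 0.24 on the log2 scale, and Adgre1, which encodes F4/80, fell by 0.56. Without Control replicate 3, Itgam and Spi1 missed the threshold (limma adjusted p = 0.0519 and 0.0547), and Itgam also did without Knockout replicate 1 or 2 (0.0652 and 0.0709). In bulk RNA, fewer cells of a type and less RNA per cell cannot be told apart. Markers of plasma cells, the cell type known for very high ER chaperone levels, summed to 37.6 to 39.5 TPM in Knockout libraries and 26.9 to 29.7 TPM in Control libraries. Of 8 such markers, 6 had a row and 3 reached the tested level: Sdc1 rose by 0.79 and Ighm by 0.41 on the log2 scale, Irf4 was not called, and Jchain and Igkc had no row. Without Control replicate 3, Ighm missed the threshold (limma adjusted p = 0.0551). Whether these markers have a part in the results below was not tested. The 4 genes of class II presentation, the partners of CD74, summed to 0.508 to 1.72 TPM in Knockout libraries and 0.159 to 0.287 TPM in Control libraries and were under the tested level. B cell markers summed to at most 0.771 TPM, fibroblast markers to at most 2.3 TPM, and 0 of 4 mast cell markers had a row. Neutrophil markers summed to 23.8 to 29.3 TPM in Knockout libraries and 17.6 to 18.1 TPM in Control libraries, with 3 of 8 having a row. Of these, 2 were tested and went opposite ways: S100a8 rose by 1.73 and Csf3r fell by 0.62 on the log2 scale.

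Over all 36 members, more genes were lower than higher in Knockout. With limma on log2(TPM + 1) and a Benjamini-Hochberg adjusted p under 0.05, 7 of the 36 (19.4%) rose and 14 (38.9%) fell, and 15 were not called. Among all 13034 rows tested, 18.5% rose and 10.1% fell, which is also the background for the counts by role below. The members were chosen with earlier results of these data known, so their direction is no independent evidence. The median log2 fold change was -0.16 over the members and 0.04 over all tested rows. Without Hspa5, whose values are discussed next, 7 of 35 rose (20%), 13 fell (37.1%) and the median was -0.15. The 3 Knockout libraries lay above all 3 Control libraries for 8 members and below them for 19, where 30.2% of all tested rows lay above and 19.8% below. Among all called rows 64.7% were higher in Knockout, which became 50.8% when the libraries were rescaled by median of ratios and 52.3% by upper quartile. The members were then 4 higher and 17 lower under median of ratios, and 4 higher and 19 lower under upper quartile. The counts also turned on single libraries: without Control replicate 1, 2 members were called higher and 10 lower; without Control replicate 3, 3 and 9; without Knockout replicate 2, 3 and 8; and without Knockout replicate 3, 4 and 18.

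**Figure D2:**
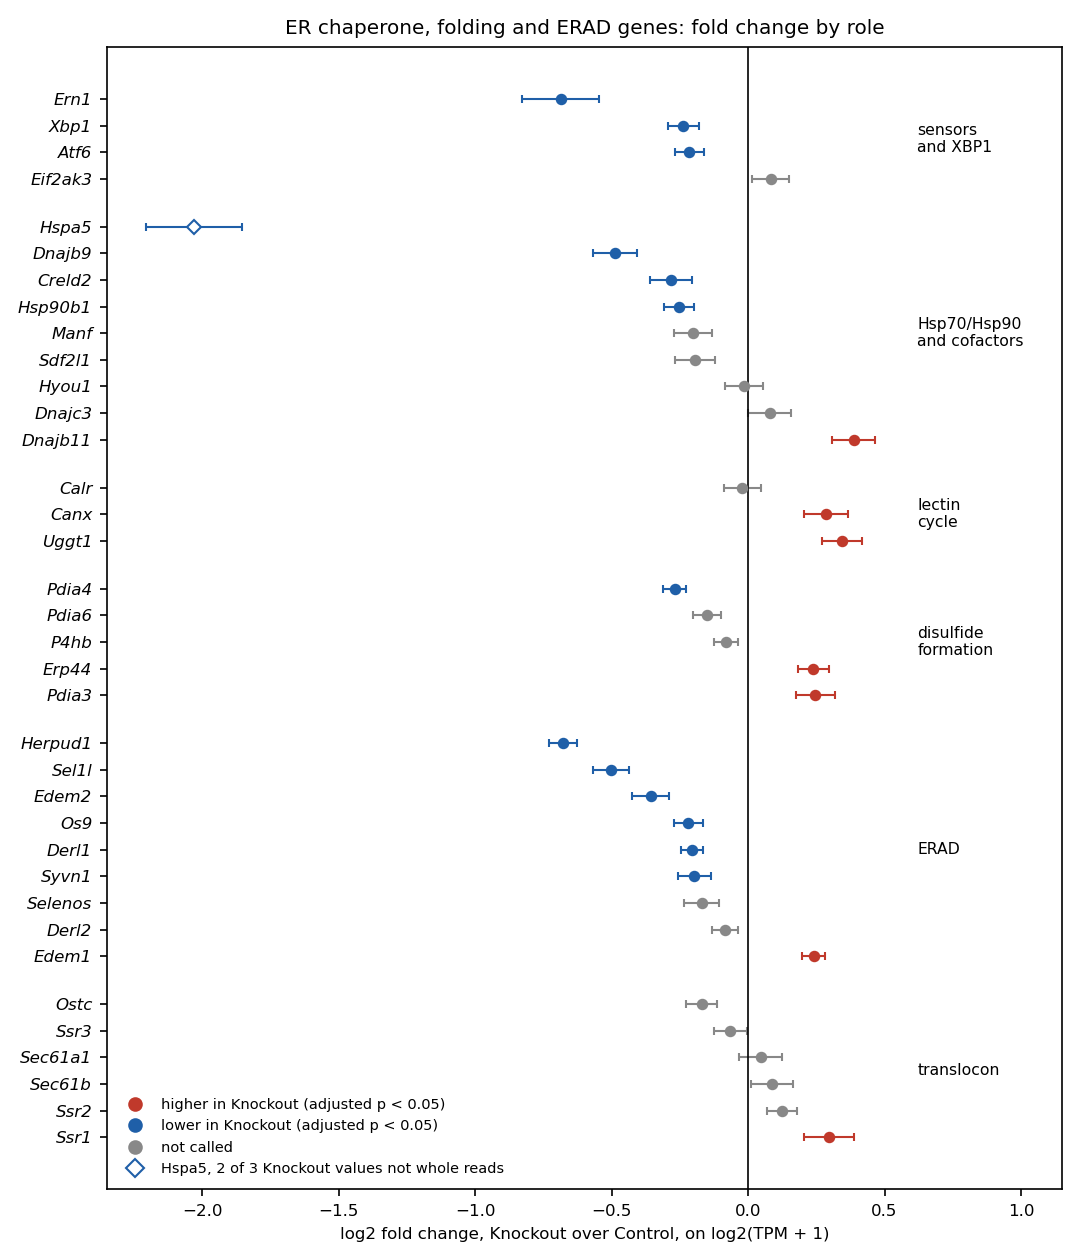
Log2 fold change of each of the 36 members, Knockout over Control, on log2(TPM + 1), grouped by role, with bars of 1 standard error. Hspa5 lies far left of the others at -2.03, ERAD genes lie left of 0 except Edem1, and the lectin cycle genes Uggt1 and Canx lie right of it.

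Summed over the 36 members, TPM was 14013, 14741 and 15337 in Knockout libraries, against 20473, 19642 and 19641 in Control libraries. All 3 Knockout sums lay below all 3 Control sums, and the members made up 1.41% to 1.55% of all TPM in Knockout libraries and 1.97% to 2.05% in Control libraries. Most of this gap was Hspa5 alone: without it the sums were 12775, 12710 and 13973 TPM in Knockout libraries and 13660, 13885 and 13686 TPM in Control libraries, and the groups overlapped.

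Hspa5 encodes BiP, the Hsp70 chaperone of the ER lumen, which holds the sensors inactive when it is not occupied by unfolded protein. It had the highest mean TPM of all members, at 1238, 2031 and 1364 TPM in Knockout libraries and 6813, 5756 and 5955 TPM in Control libraries. Every Knockout library lay far below every Control library, and Knockout replicate 2 lay above the other Knockout replicates. The log2 fold change was -2.03 (SE 0.18, adjusted p = 0.00155, limma).

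The Hspa5 values carry a limit of the deposited table. Converted to reads at the annotated length, the 3 Control values were whole within 0.000821 read. Knockout replicate 2 came to 134804.001 reads, but Knockout replicate 1 came to 93799.933 and Knockout replicate 3 to 96958.894, which are not whole. Hspa5 was 1 of 28 rows in the table that gave whole reads at no single length, and it was the only such row among the members. In most of the 28 rows all 3 Control values came to whole reads, with fewer whole values in Knockout libraries. Gapdh, Ldha and Pgk1, for example, had 3 whole values in Control and 0 in Knockout. Some rows, such as Slc2a5 and Nfatc1, had 0 whole values in either group. The rows of the table run nearly in order of fold change (Spearman correlation of row number and log2 fold change 0.987 across the 13034 tested genes, which are not independent replicates). The 20 rows nearest to Hspa5 had a median log2 ratio of -1.07, while its own ratio was -2.00. Cd74, another of the 28 rows, had the lowest log2 fold change of all tested rows, yet stood at row 494. What was done to these values is not given in the sources used here, so the sizes of the Hspa5 and Cd74 differences are uncertain.

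Of the 4 genes for the sensors and XBP1, 3 fell, and 1, Eif2ak3, was not called. Their summed level was 314 ± 17.6 TPM in Knockout and 385 ± 13.6 TPM in Control (SD, n = 3 each). Ern1, the kinase and RNase IRE1, had 52.7, 51.9 and 35.7 TPM in Knockout libraries, against 76.3, 75.8 and 72.4 TPM in Control libraries. All Knockout values were below all Control values, with Knockout replicate 3 lowest, and the log2 fold change was -0.69 (SE 0.14, adjusted p = 0.013, limma).

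Xbp1, which encodes the transcription factor whose mRNA IRE1 splices, had 169, 153 and 159 TPM in Knockout libraries and 198, 187 and 182 TPM in Control libraries. The table counts the gene as a whole, so spliced and unspliced Xbp1 cannot be told apart. The fold change on the log2 scale was -0.24 (SE 0.06, adjusted p = 0.0216, limma). Atf6 had 96.9, 95.03 and 88.3 TPM in Knockout libraries and 112, 109 and 105 TPM in Control libraries, a log2 fold change of -0.22 (SE 0.05, adjusted p = 0.0232, limma). Neither gene's groups overlapped, but both calls were lost without some libraries. The adjusted p of Xbp1 was 0.0568 to 0.0747 without Control replicate 1, Control replicate 2 or Knockout replicate 2. That of Atf6 was 0.0558 to 0.071 without any 1 of the Control replicates or Knockout replicate 2. Eif2ak3, the kinase PERK, had the lowest level of the 36 members, at 13.9, 13.2 and 15.0 TPM in Knockout libraries and 13.4, 13.3 and 12.9 TPM in Control libraries. Its groups overlapped, and its log2 fold change was 0.08 (SE 0.07, adjusted p = 0.397, limma).

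Of the 9 genes for Hsp70 and Hsp90 chaperones and their cofactors, 4 fell, 1 rose and 4 were not called, with a median log2 fold change of -0.20 with or without Hspa5. Without Hspa5 their summed level was 2782 ± 218 TPM in Knockout and 3150 ± 29.4 TPM in Control (SD, n = 3 each). The J-domain proteins, which drive the ATPase of BiP, did not move together: 1 fell, 1 rose and 1 was not called. Dnajb9, known as ERdj4 and as a factor that keeps IRE1 inactive through BiP, had 76.9, 79.9 and 79.7 TPM in Knockout libraries and 98.1, 122 and 114 TPM in Control libraries. Its Knockout values lay close together below all Control values, and its log2 fold change was -0.49 (SE 0.08, adjusted p = 0.00715, limma). Dnajb11, known as ERdj3, which brings unfolded clients to BiP, had 197, 198 and 236 TPM in Knockout libraries and 151, 164 and 165 TPM in Control libraries. All Knockout values were above all Control values, and its log2 fold change was 0.39 (SE 0.08, adjusted p = 0.0134, limma). Dnajc3, known as p58IPK, which is both a BiP partner and an inhibitor of PERK, was not called (log2 fold change 0.08, SE 0.08, limma adjusted p = 0.481).

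Hsp90b1, the Hsp90 of the ER (GRP94), had 1190.4, 1181 and 1325 TPM in Knockout libraries and 1465, 1458 and 1476 TPM in Control libraries, with no overlap. The gene had a log2 fold change of -0.25 (SE 0.05, adjusted p = 0.0156, limma), but adjusted p was 0.0579 and 0.0596 without Knockout replicate 2 and without Control replicate 3. Creld2, an ER protein induced by stress, averaged 283 ± 21.9 TPM in Knockout and 344 ± 28.0 TPM in Control (SD, n = 3 each). Its log2 fold change was -0.28 (SE 0.08, adjusted p = 0.0345, limma), and adjusted p was 0.0866 to 0.1 without Control replicate 1 or 3 or Knockout replicate 1 or 2. Hyou1, the large Hsp70-related protein GRP170 that exchanges the nucleotide of BiP, had 241, 232 and 276 TPM in Knockout libraries and 256, 254 and 244 TPM in Control libraries. Its groups overlapped, and its log2 fold change was -0.01 (SE 0.07, adjusted p = 0.888, limma).

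Manf, which binds BiP and slows its nucleotide exchange, and Sdf2l1, which keeps BiP clients soluble, were not called over all libraries, with log2 fold changes of -0.20 and -0.19 (SE 0.07 each, limma adjusted p = 0.0687 and 0.0865). Without Knockout replicate 3, in which both genes were higher than in the other Knockout libraries, they passed the threshold as lower in Knockout, with adjusted p of 0.00512 for Manf and 0.00883 for Sdf2l1. With all libraries, both were also called lower under upper-quartile scaling (limma adjusted p = 0.026 for Manf and 0.0383 for Sdf2l1). The same held for limma-voom on recovered reads (0.0225 and 0.0361), and for Manf alone under median of ratios (limma, 0.0487).

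**Figure D3:**
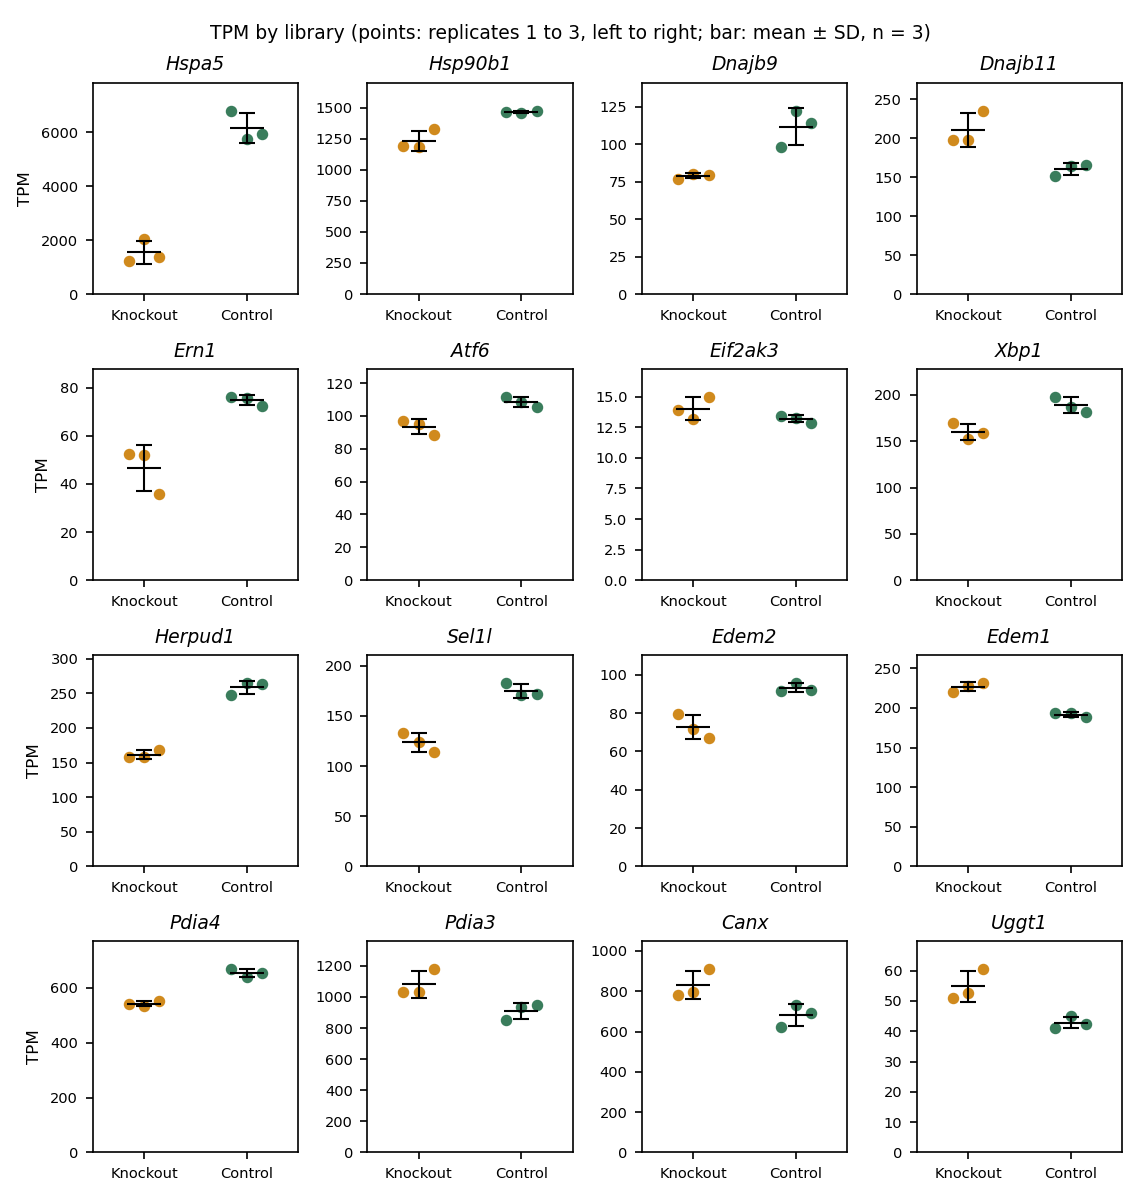
TPM of 16 members in each library, with Knockout left of Control, points for replicates 1 to 3 and bars for the mean ± SD (n = 3). Hspa5, Dnajb9, Ern1, Herpud1, Sel1l and Edem2 show gaps between the groups with Knockout lower, and Dnajb11, Edem1, Canx and Uggt1 show Knockout higher. Hsp90b1, Atf6, Xbp1 and Pdia4 also lie lower in Knockout without overlap, Pdia3 lies higher without overlap, and Eif2ak3 overlaps.

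The lectin chaperone cycle holds glycoproteins until they are folded, and of its 3 genes 2 rose, 0 fell and 1 was not called. Uggt1, the sensor enzyme that puts a glucose back on glycoproteins that are not yet folded, had 51.0, 52.7 and 60.6 TPM in Knockout libraries and 41.1, 44.9 and 42.4 TPM in Control libraries. This was a log2 fold change of 0.34 (SE 0.07, adjusted p = 0.0155, limma). Canx, calnexin, the membrane-bound lectin, had 783, 795 and 911 TPM in Knockout libraries and 621, 729.6 and 692 TPM in Control libraries, a log2 fold change of 0.29 (SE 0.08, adjusted p = 0.0381, limma).

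For both genes all Knockout values lay above all Control values, with Knockout replicate 3 highest. Without Control replicate 1 or 3 adjusted p of Uggt1 was 0.0548 and 0.0563. The call of Canx was lost, with adjusted p of 0.064 to 0.105, without Control replicate 1 or 3 or Knockout replicate 2 or 3, and it was also lost under both other scalings, with 0.0675 for median of ratios and 0.0508 for upper quartile. Calr, calreticulin, the soluble lectin, had 1847, 1850.3 and 2157 TPM in Knockout libraries and 1954, 2014 and 1958 TPM in Control libraries. Its groups overlapped, and its log2 fold change was -0.02 (SE 0.07, adjusted p = 0.837, limma).

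The 5 measured genes of disulfide formation were split, with 2 higher, 1 lower and 2 not called. Pdia4, the isomerase ERp72, had 541, 533 and 552 TPM in Knockout libraries and 669, 639 and 652 TPM in Control libraries. Knockout values lay below all Control values, and the log2 fold change was -0.27 (SE 0.04, adjusted p = 0.00591, limma). Pdia3, the isomerase ERp57 that works on glycoproteins together with the lectins and in the MHC class I peptide loading complex, had 1033, 1029 and 1181 TPM in Knockout libraries and 852, 932 and 946 TPM in Control libraries. The difference was 0.25 on the log2 scale (SE 0.07, adjusted p = 0.0385, limma). The Pdia3 groups did not overlap, but its call was lost without any 1 of the 6 libraries (Control replicates 1 to 3 and Knockout replicates 1 to 3), with adjusted p of 0.05003 to 0.112, and under both other scalings (0.0791 by median of ratios and 0.0565 by upper quartile).

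Erp44, which retrieves escaped ER proteins from the Golgi, had 111, 112 and 119 TPM in Knockout libraries and 90.1, 99.5 and 100.4 TPM in Control libraries, with no overlap, and a log2 fold change of 0.24 (SE 0.06, adjusted p = 0.0223, limma). Its adjusted p was 0.0542 and 0.0574 without Control replicate 1 and without Knockout replicate 2. P4hb, the main isomerase PDI, had 2057, 1991 and 2032 TPM in Knockout libraries and 2219, 2157 and 2059 TPM in Control libraries. These values nearly touched, and its log2 fold change was -0.08 (SE 0.05, adjusted p = 0.219, limma). Pdia6, an isomerase also known to act on IRE1, was not called (log2 fold change -0.15, SE 0.05, limma adjusted p = 0.0639), but was called lower without Knockout replicate 3 (adjusted p = 0.0103). With all libraries it was also called lower under median of ratios and upper quartile (limma adjusted p = 0.041 and 0.0202) and by limma-voom on recovered reads (0.0229). The row named Ero1lb, an older symbol of Ero1b that is kept outside the counts above, averaged 28.2 ± 0.711 TPM in Knockout and 26.8 ± 2.14 TPM in Control (SD, n = 3 each), and was not called (log2 fold change 0.08, SE 0.07, limma adjusted p = 0.435). Under both other scalings the disulfide group held 1 higher and 2 lower genes.

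ERAD members were mostly lower in Knockout: of 9 with a row, 6 fell (66.7%), 1 rose (11.1%) and 2 were not called. Among all tested rows 10.1% fell and 18.5% rose. The median log2 fold change of the 9 was -0.21. Of the 28 tested ERAD genes beyond the members, given below, 4 fell and 2 rose, with a median of 0.01. The summed level of the 9 members was 1357 ± 12.4 TPM in Knockout and 1601 ± 14.4 TPM in Control (SD, n = 3 each). This was a ratio of 0.848, and no Knockout sum reached a Control sum. Herpud1, a membrane protein that gathers the degradation complex, had 157, 158 and 168 TPM in Knockout libraries and 247, 265 and 263 TPM in Control libraries. Its groups were far apart, and the log2 fold change of -0.68 (SE 0.05, adjusted p = 0.000826, limma) gave it the lowest adjusted p of the 36 members. Sel1l, the adaptor of the ubiquitin ligase, had 133, 124 and 114 TPM in Knockout libraries and 183, 171 and 172 TPM in Control libraries. Sel1l had a log2 fold change of -0.50 (SE 0.07, adjusted p = 0.00406, limma), with Knockout replicate 3 lowest. Edem2, a mannosidase of the step that marks glycoproteins for degradation, had 79.8, 71.5 and 67.0 TPM in Knockout libraries and 91.7, 95.9 and 92.2 TPM in Control libraries, a log2 fold change of -0.36 (SE 0.07, adjusted p = 0.011, limma). Again no Knockout value reached a Control value.

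Edem1, a protein of the same family that delivers misfolded glycoproteins for degradation, was the one ERAD member that rose, and it was singled out after its values were seen. It had 220.5, 227 and 232 TPM in Knockout libraries and 194, 193 and 188 TPM in Control libraries. All Knockout values lay above all Control values, and its log2 fold change was 0.24 (SE 0.04, adjusted p = 0.00881, limma). Derl1, a channel subunit through which substrates leave the ER, had 222, 219 and 221 TPM in Knockout libraries and 261, 252 and 251 TPM in Control libraries, with a log2 fold change of -0.21 (SE 0.04, adjusted p = 0.012, limma). Derl2, of the same family, had 44.4, 42.0 and 42.7 TPM in Knockout libraries and 44.8, 46.0 and 46.3 TPM in Control libraries. Its values lay close to each other, and its log2 fold change was -0.09 (SE 0.05, adjusted p = 0.208, limma).

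Os9, a lectin that hands substrates to Sel1l, averaged 202 ± 11.1 TPM in Knockout and 235 ± 5.45 TPM in Control (SD, n = 3 each), with a log2 fold change of -0.22 (SE 0.05, adjusted p = 0.0228, limma). Its adjusted p was 0.0532 to 0.0706 without any 1 of Control replicates 1, 2 and 3 or Knockout replicate 2. Syvn1, the ubiquitin ligase HRD1, averaged 46.3 ± 1.85 TPM in Knockout and 53.3 ± 3.34 TPM in Control (SD, n = 3 each), with a log2 fold change of -0.20 (SE 0.06, adjusted p = 0.0488, limma). Its call was lost, with adjusted p of 0.058 to 0.139, without Control replicate 1, 2 or 3 or Knockout replicate 1 or 2. Selenos, a selenoprotein of the complex that pulls substrates out, was not called (log2 fold change -0.17, SE 0.06, limma adjusted p = 0.0867), and was called lower without Knockout replicate 3 (adjusted p = 0.0167). With all libraries it was also called lower under upper quartile (limma adjusted p = 0.026) and by limma-voom on recovered reads (0.031).

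The translocon group held 6 genes, of which 5 were not called, 1 rose and 0 fell, with a median log2 fold change of 0.07. Their summed level was 1612 ± 116 TPM in Knockout and 1563 ± 56.1 TPM in Control (SD, n = 3 each). Ssr1, a subunit of the translocon-associated protein complex that helps some signal sequences enter, had 141, 145 and 171 TPM in Knockout libraries and 112, 132 and 128 TPM in Control libraries. Its groups did not overlap, and its log2 fold change was 0.30 (SE 0.09, adjusted p = 0.0473, limma). This call was lost without Control replicate 1, 2 or 3 or Knockout replicate 2 or 3 (adjusted p of 0.0649 to 0.133), and under both other scalings (0.0803 by median of ratios and 0.0624 by upper quartile). Sec61a1, the pore subunit of the channel, had 148, 147.6 and 174 TPM in Knockout libraries and 144, 162 and 148 TPM in Control libraries. Its groups overlapped, with a log2 fold change of 0.05 (SE 0.08, adjusted p = 0.691, limma).

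The remaining translocon members were not called: Sec61b, a small channel subunit, at a log2 fold change of 0.09, Ssr2 at 0.12 and Ssr3 at -0.07, both partners of Ssr1, and Ostc, a subunit of the oligosaccharyltransferase that adds glycans, at -0.17 (SE of 0.05 to 0.08, limma adjusted p of 0.0625 to 0.446). Ostc was the nearest to the threshold, with all Knockout values below all Control values. Under both other scalings the translocon group held 0 higher genes and 1 lower gene, Ostc, which was also called lower without Control replicate 1 (limma adjusted p = 0.048).

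Of the 21 called members, 10 were called whichever 1 library was left out. Of these, 8 fell: Ern1, Hspa5, Dnajb9, Pdia4, Herpud1, Sel1l, Edem2 and Derl1. The other 2, Dnajb11 and Edem1, rose. Hspa5, whose Knockout values carry the limit given above, is among the 8 that fell. The share of all tested rows that kept a call in this way was not computed, so these counts have no background beside them. In the table of per-library values, Knockout replicate 3 stood apart from the other Knockout libraries on these genes. It was the highest Knockout library for 25 of the 36 members (69.4%), against 38.6% of all tested rows, and the lowest for 5: Ern1, Atf6, Sel1l, Edem2 and Os9. Relative to the mean of the other Knockout libraries its median log2 difference was 0.14 over the members and -0.01 over all tested rows. By role it was 0.22 for Hsp70 and Hsp90 chaperones, 0.22 for the lectin cycle, 0.19 for the translocon, 0.08 for disulfide formation, 0.00 for ERAD and -0.07 for the sensors and Xbp1. These differences are a description of 1 library and were not tested.

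**Figure D4:**
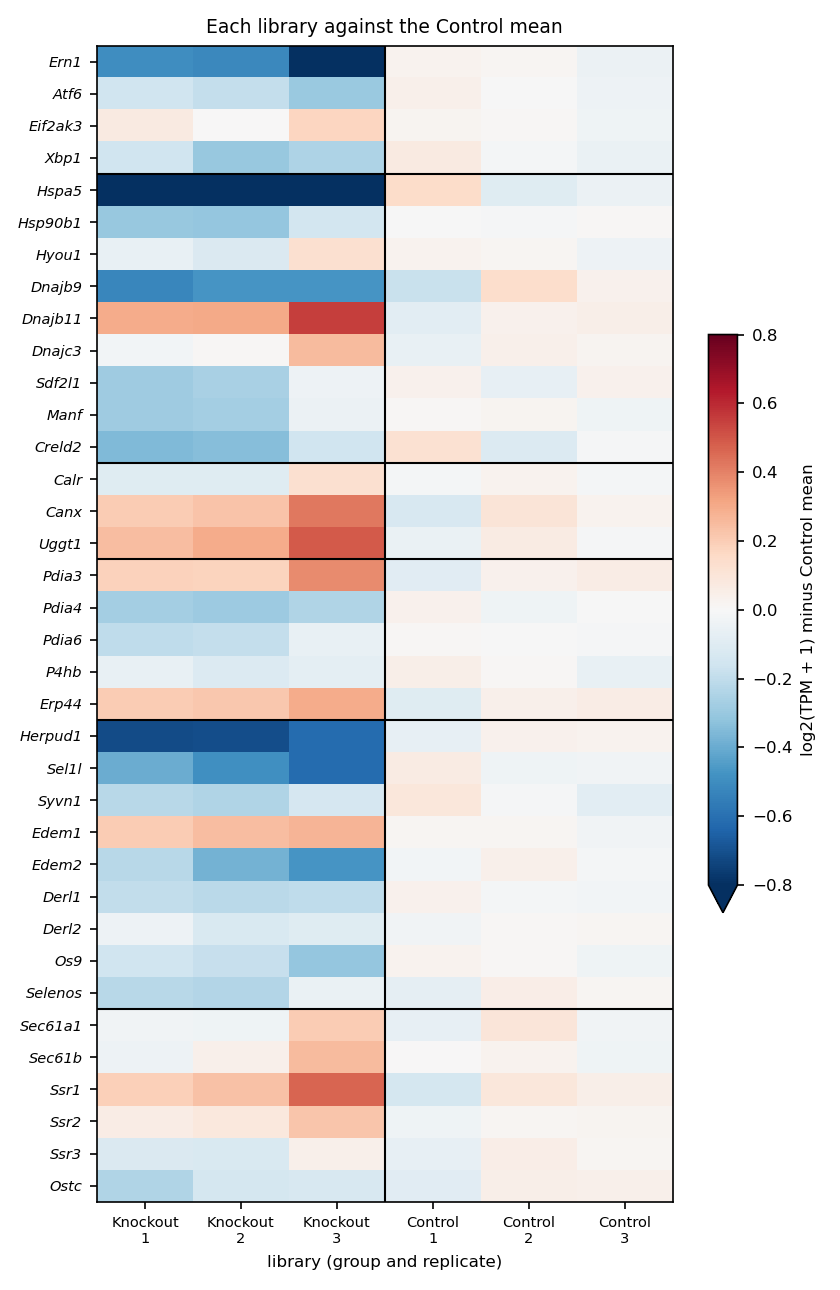
Log2(TPM + 1) of each member in each library minus the mean of the Control libraries, with members in rows by role and Knockout libraries left of Control libraries. The colour scale ends at -0.8, which the Hspa5 values of all 3 Knockout libraries and Ern1 in Knockout replicate 3 pass, and Knockout replicate 3 is redder than the other Knockout libraries for most chaperone, lectin and translocon genes.

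Set beside the promoter letters printed above, the 9 tested members with an ERSE or ERSE-II comprised 5 that fell, 1 that rose and 3 that were not called, with a median log2 fold change of -0.20. Without Hspa5 the counts were 4, 1 and 3 of 8, and the median was -0.17. The 20 tested members with a window and neither element comprised 7 that fell, 6 that rose and 7 that were not called, with a median of -0.08. Among all tested rows 10.1% fell and 18.5% rose. Among the members with an ERSE, Hspa5, Hsp90b1, Creld2 and Syvn1 fell, Canx rose, and Calr, Dnajc3 and Pdia6 were not called. The calls of Hsp90b1, Creld2, Syvn1 and Canx were each lost with some libraries left out, as given above. That of Canx was also lost under both other scalings. Herpud1, the member with ERSE-II, fell. Outside the members, 5 tested genes held an ERSE, of which 1, Alg12, fell, 1, Hnrnpa3, rose and 3 were not called. Letters in a window are a description and do not show that a factor binds there.

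Lists of other ER genes by known function were compared in the same fit. Over the 6 lists together, 130 genes were tested, of which 13 rose (10%) and 21 fell (16.2%), against 18.5% and 10.1% of all tested rows, and their median log2 fold change was 0.00 after rounding. Of the 21 that fell, 10 were from the PERK and ATF4 list, and without that list 13 of 119 rose (10.9%) and 11 fell (9.24%). Among 30 tested chaperones and folding enzymes beyond the members, 4 rose and 3 fell. Cnpy3, a chaperone of Toll-like receptors, averaged 38.8 ± 2.76 TPM in Knockout and 28.3 ± 1.28 TPM in Control (SD, n = 3 each; log2 fold change 0.44, SE 0.07, limma adjusted p = 0.00561). Serp1 fell by 0.34 and Pdia5, an isomerase, fell by 0.33 on the log2 scale. The ER oxidase Ero1a, listed as Ero1l, had 414, 332 and 204 TPM in Knockout libraries and 487, 406 and 393 TPM in Control libraries, which overlapped, and was not called (limma adjusted p = 0.161).

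Among 28 tested ERAD genes beyond the members, 2 rose and 4 fell, with a median log2 fold change of 0.01. The largest called changes were in Erlin1, which binds and helps degrade IP3 receptors and fell by 0.54 on the log2 scale, in the ubiquitin ligase Rnf185, which fell by 0.36, and in Herpud2, a relative of Herpud1, which fell by 0.30. Among 28 tested genes of the translocon, signal peptidase and oligosaccharyltransferase, 4 rose and 0 fell. The 3 largest called changes were Ost4 at 0.56, Rpn1 at 0.41 and Ddost at 0.27 on the log2 scale. These encode subunits of the oligosaccharyltransferase, as does Rpn2, the other gene of the list that rose, at 0.24 (limma adjusted p = 0.0105). Further subunits on the list were not called, among them Dad1 at 0.33, Stt3a and Stt3b at 0.19 and 0.11, Krtcap2 at -0.09 and Tmem258 at -0.0076. The call of Ost4 was lost without Control replicate 1 (limma adjusted p = 0.057). Under median of ratios 2 genes of this list were called lower, and under upper quartile 3.

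The PERK and ATF4 output list, which holds transcription factors and enzymes switched on when PERK slows translation, was mostly lower in Knockout: of 11 tested genes, 10 fell, 0 rose and 1, Ddit4, was not called. Its median log2 fold change was -0.83, and the list was chosen with earlier results of these libraries known, so its direction is no independent evidence. Ddit3, which encodes CHOP, had 269.8, 254 and 156 TPM in Knockout libraries and 539, 489 and 507 TPM in Control libraries, and fell by 1.21 on the log2 scale (SE 0.19, adjusted p = 0.00618, limma). Cebpb, a transcription factor of the inflammatory response, fell by 1.65 and Ppp1r15a, which restores translation, fell by 1.36. Eif2ak3 itself was not called, as given above.

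Among 12 tested ER membrane sensors, proteases and factors, 3 rose and 3 fell. Nfe2l1, an ER-bound transcription factor released by ERAD, fell by 0.45 on the log2 scale. Mbtps1, the protease that cuts ATF6 in the Golgi, rose by 0.27 and Bak1 rose by 0.24, and both calls were lost without Control replicate 3 (limma adjusted p = 0.0547 and 0.0515). Of 21 tested genes of ER retrieval and COPII export, 0 rose, 1 fell and 20 were not called, and the 1 was Mcfd2, an export receptor subunit that fell by 0.49.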

How the data were processed

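Bulk RNA sequencing of total RNA gave 1 deposited table of TPM, with 1 column for each of the 6 libraries and 0 columns without a sample. The file header names no unit. TPM was read from the values, whose columns sum to 991721 to 993362 in Knockout libraries and 998350 to 998572 in Control libraries. Names given in the submitters' processing notes are GRCm39 and DESeq2, without a role. Not given in the sources used here were the aligner, counting tool, strand setting and annotation. Reads were recovered from TPM with GENCODE M21 union exon lengths: 16508 of 17217 rows (95.9%) were whole within 0.02 read in all libraries, 681 more at a searched length (within 0.003 read) and 28 at none. At these depths 1 read in 1 kb is worth 0.0558 to 0.0883 TPM. Because the values are TPM, log2(TPM + 1) was tested with limma 3.58.1 in R 4.3.3 (trend and robust settings), two-sided, on the 13034 rows of mean TPM at least 1, with Benjamini-Hochberg adjustment over all of them and a threshold of 0.05. Fold changes are Knockout over Control on that scale, which understates changes of low genes. All 36 members with a row passed the filter. limma-voom on the recovered reads, other pseudocounts, filters, scalings and left-out libraries were alternatives. The fit, the read recovery and the motif search were tested on simulated data. Values per library were printed for Hspa5, the 4 sensor and Xbp1 genes, and in each role the 3 largest called changes and the smallest change; any others were chosen after values were seen. Members and lists were chosen with earlier results of these data known. Ero1a and Ero1b were found under the older symbols Ero1l and Ero1lb through RefSeq synonyms. Same-numbered libraries did not deviate together (correlations 0.134, -0.0766 and 0.0315), so no pairing was used. Exons of Derl2, Manf, Sec61a1, Hsp90b1, Ssr2, Syvn1, Eif2ak3, Pdia3, Pdia6, Pdia4 and Dnajb9 overlap other annotated genes, and a Calr pseudogene is annotated, so some of their reads may be shared. The overlaps with any 1 gene run from 14 bp, as in Pdia4 and Dnajb9, to 549 bp in Sec61a1, so for some members few reads can be concerned. Promoter windows are RefSeq sequence of GRCm38.p6; protein sequences were not used here.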

Additional observations from a re-analysis of the deposited data

How the results depend on the processing

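The median log2 fold change of the members stayed negative in every setting run, between -0.21 and -0.13. Main counts were 7 members higher and 14 lower, and 2406 rows higher and 1313 lower. The members called higher were 4 with no filter on low values, 4 under median-of-ratios scaling, 4 under upper-quartile scaling and 4 with no trend and no robust setting. Leaving out 1 library gave 2 to 6 members higher and 8 to 18 lower, and 1312 to 2094 rows higher and 666 to 1222 lower. Numbers do not pair the libraries; with a replicate block 7 members were higher and 14 lower, as Syvn1 lost its call (limma adjusted p = 0.0726) and Ostc gained one. limma-voom, which leaves out Hspa5, gave 7 and 18 of 35 members, against 7 and 13 of those 35. Direction turned for 4 members that were called in no setting where it turned. With 1 library left out, log2 fold changes ran from -0.088 (without Knockout replicate 3) to 0.036 (without Knockout replicate 2) for Hyou1, from -0.0957 to 0.016 for Calr, from -0.0065 to 0.13 for Dnajc3 and from -0.032 to 0.0936 for Sec61a1, which was -0.0062 under upper-quartile scaling. Canx, Pdia3, Ssr1 and Syvn1 lost their calls with no filter on low values (limma adjusted p of 0.0519 to 0.0652). They also lost them with no trend and no robust setting (limma, 0.0679 to 0.0782), as did Creld2 (0.0629). The causes were not tested. The lowest count of a member in a library was 915 reads (Eif2ak3). There were 3 libraries a group, and genotype and batch cannot be told apart.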
